A study of Mus musculus with 4 samples.

Results

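The genes described here are 38 cyclins, cyclin-dependent kinases, replication factors and mitotic regulators, chosen by name with earlier results of these data known. They were followed in mouse embryonic fibroblasts with and without focal adhesion kinase (FAK), a tyrosine kinase that relays signals from integrins at sites where cells hold the matrix. The array annotation paired 37 of the 38 with at least 1 probe set of their own, out of 18194 genes with such a probe set, and all 37 were among the 12290 genes kept for testing. The remaining gene, Ccnb1, was not analysed here. By role, 12 of the genes act in G1, 10 in DNA replication (S phase) and 15 of the 16 listed mitotic genes were measured. Together the 37 genes carry 95 probe sets, and each gene is represented by its brightest one unless another is named.

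Embryos that were FAK +/+ (wild type here) or FAK -/- (knockout here) gave the cells, and each genotype was measured untreated and after 24 h with endothelin-1 (ET-1), a peptide that acts through G protein-coupled receptors. All 4 groups were passage 5 cells that had first been kept without serum for 24 h at 50% confluence. Each group is 1 Affymetrix mouse expression array, so the difference between 2 arrays has no replicate check. The labels give no dose of ET-1, no strain and no number of embryos or lines behind a group, so a difference between genotypes cannot be told apart from one between cultures.

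A cell that divides passes a gate in G1, where D and E cyclins with their kinases phosphorylate the retinoblastoma protein and release E2F factors. E2F factors switch on the genes for copying DNA. A later wave of genes, driven by the MuvB complex with B-MYB and FOXM1, builds the mitotic apparatus. Fibroblasts without serum tend to stop before the gate, and kinase inhibitors such as p27 help to hold them there. Adhesion to matrix through integrins and FAK is one of the known inputs to cyclin D1 expression in fibroblasts.

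The replication and mitotic genes differ in their promoters, and the stretches shown here carry that contrast. RefSeq promoter windows of the GRCm38.p6 assembly, from 250 bases before to 50 after the start, were found for 29 of the 38 genes, with 32 starts in all. Both strands were searched for the E2F site (TTTCCCGC, TTTCGCGC, TTTGCCGC or TTTGGCGC), the cell cycle homology region or CHR (TTTGAA or TTCGAA), which the MuvB complex binds, and the CCAAT box (CCAAT). E2F sites can overlap each other on opposite strands. In the lines that follow, capitals mark every match to one of these motifs on either strand, and each stretch reads 5′ to 3′ toward the start.
Mcm5, GRCm38.p6 chr8:75109339-75109508, plus strand: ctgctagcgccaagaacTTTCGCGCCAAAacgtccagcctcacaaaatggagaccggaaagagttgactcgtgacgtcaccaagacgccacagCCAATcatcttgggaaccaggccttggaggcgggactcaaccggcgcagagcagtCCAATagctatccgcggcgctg
Mcm6, GRCm38.p6 chr1:128359706-128359835, minus strand: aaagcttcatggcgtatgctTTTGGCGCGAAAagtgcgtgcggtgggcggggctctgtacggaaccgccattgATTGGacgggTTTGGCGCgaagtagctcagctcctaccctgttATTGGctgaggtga
Ccnb2, GRCm38.p6 chr9:70421545-70421664, minus strand: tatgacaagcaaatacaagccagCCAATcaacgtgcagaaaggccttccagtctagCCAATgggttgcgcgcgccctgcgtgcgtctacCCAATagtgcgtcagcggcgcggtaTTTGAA
Cdk1, GRCm38.p6 chr10:69352913-69353057, minus strand: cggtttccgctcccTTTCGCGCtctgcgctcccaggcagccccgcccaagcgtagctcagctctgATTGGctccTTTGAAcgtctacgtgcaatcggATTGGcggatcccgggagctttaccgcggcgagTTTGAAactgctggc
Cdc20, GRCm38.p6 chr4:118437344-118437423, minus strand: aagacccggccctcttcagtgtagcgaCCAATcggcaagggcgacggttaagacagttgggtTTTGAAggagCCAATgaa

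Each replication gene shown has 2 E2F sites that overlap on opposite strands, and Mcm6 has another nearer the start. Ccnb2 has 3 evenly spaced CCAAT boxes and then a CHR just past the start, while Cdk1 holds all 3 motifs. Over the lists, an E2F site stood in 4 of 10 starts of replication genes (40.0%), 1 of 12 mitotic starts (8.33%) and 1 of 10 G1 starts, against 2.27% of 32851 starts of all genes. A CHR stood in 10 of 12 mitotic starts (83.3%), 2 of 10 replication starts and 0 of 10 G1 starts, against 19.2% of all starts. CCAAT boxes were found in 11 mitotic and 9 replication starts, against 37.4% of all. These counts describe letters in a window and carry no test, and the starts of a gene share sequence.

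Array quality and cell identity were read from control and marker probe sets. For the control Gapdh, the 3′ probe set exceeded the 5′ one by 3.79 (log2) in wild type after ET-1, against 0.85 to 0.90 elsewhere, a sign of RNA or labelling that reached less far toward the 5′ end. For the control Actb the gap was 1.81 there, 0.66 in untreated wild type and 1.30 and 1.27 in the knockout, so that array stood apart less. Among fibroblast markers 12 of 14 were above the level filter in 3 arrays and 10 in the ET-1-treated knockout. Their summed linear level was lower in the knockout, at 124069 untreated and 114442 after ET-1, against 189956 and 207375 in wild type. Fap and Lum were at or below the filter in all 4 arrays. Of 10 epithelial and mesothelial markers, 8 were above it in 3 arrays and 4 in ET-1-treated wild type, with a summed level of 13682 to 20998 in wild type and 62633 to 70853 in the knockout and with Cdh1 at or below the filter throughout. Above it were 1 of 6 endothelial genes (Kdr), 3 or 4 of 7 leukocyte genes and 2 of 4 myogenic genes (Myod1 and Des). Of the leukocyte genes, Adgre1, Csf1r, Lyz2 and Cd14 were above it on at least 1 array. At or below it on every array were Pecam1, Cdh5, Tek, Tie1 and Emcn (endothelial), Ptprc, Cd68 and Itgam (leukocyte), and Myf5 and Myog (myogenic). The part of these features in the differences described here was not tested.

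**Figure D1:**
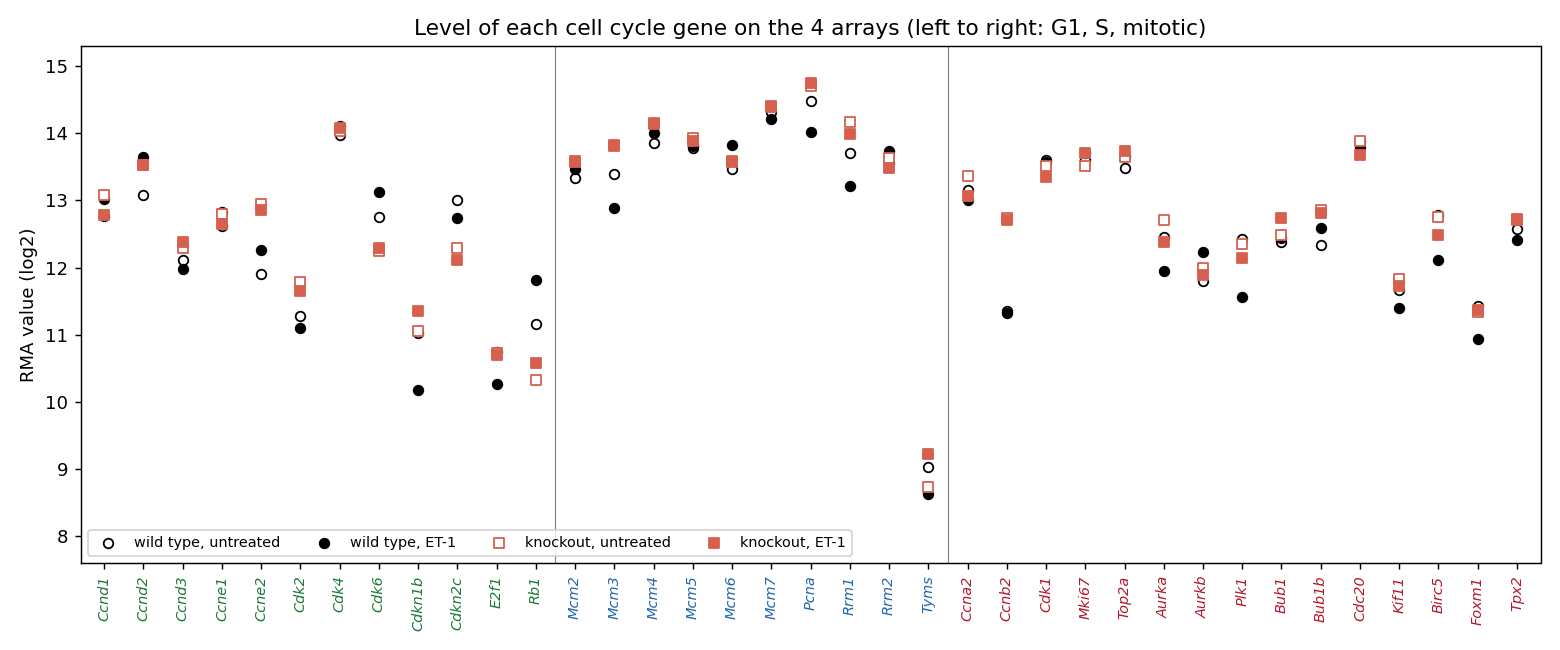
Log2 RMA value (y axis) of the brightest probe set of each of the 37 genes (x axis, grouped as G1, S and mitotic), with 1 point per array: circles for wild type, squares for knockout, filled after ET-1. Heights of different genes cannot be compared, since probe sets differ; within a gene, Ccnb2 shows the widest gap between genotypes, with squares at 12.73 and 12.71 and circles at 11.36 and 11.32.

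Most cell cycle genes stood close together in the 2 genotypes. An additive limma model of genotype and treatment over all 4 arrays called 2 of the 37 genes for genotype at an adjusted p under 0.05 (5.41%), 1 higher and 1 lower in the knockout, against 13.6% of the 12290 genes tested (6.6% higher and 7.05% lower). At an unadjusted p under 0.05 there were 9 of 37, against 29.9% of all genes. The mitotic cyclin gene Ccnb2 rose and the pocket protein gene Rb1 fell. In untreated cells 2 of 37 genes differed by 2-fold or more, both higher in the knockout, against 9.37% of all genes (4.78% higher and 4.59% lower). After ET-1 3 of 37 did so, 2 higher and 1 lower, against 12.1% of all genes (5.61% higher and 6.53% lower). At 1.5-fold or more, 2 genes were higher and 2 lower untreated, against 10.9% and 9.02% of all genes. After ET-1 7 were higher and 3 lower, against 11.9% and 13.3%. The median difference of the 37 genes was 0.15 untreated and 0.17 after ET-1, against 0.02 and -0.03 over all genes. In these bulk samples fewer dividing cells and less of a transcript per dividing cell cannot be told apart.

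Both knockout arrays lay above both wild-type arrays for 16 of the 37 genes, against 30.0% of all genes, and below them for 4, against 29.3%. Of the 16, 7 were replication genes (Mcm2, Mcm3, Mcm4, Mcm5, Mcm7, Pcna and Rrm1), 4 G1 genes and 5 mitotic genes. The 4 genes below were Cdk6, Cdkn2c, Rb1 and Cdk1, of which the first 3 act in G1. The limma fit has 1 residual degree of freedom, so its errors weigh a difference against how far it varied with treatment and not against a spread between cultures. Its count depended on the array left out, both for these genes and over all genes. Such a fit leaves 1 array in a genotype, so its error is the spread between the 2 arrays of the other genotype. Its counts are therefore not weighed here.

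**Figure D2:**
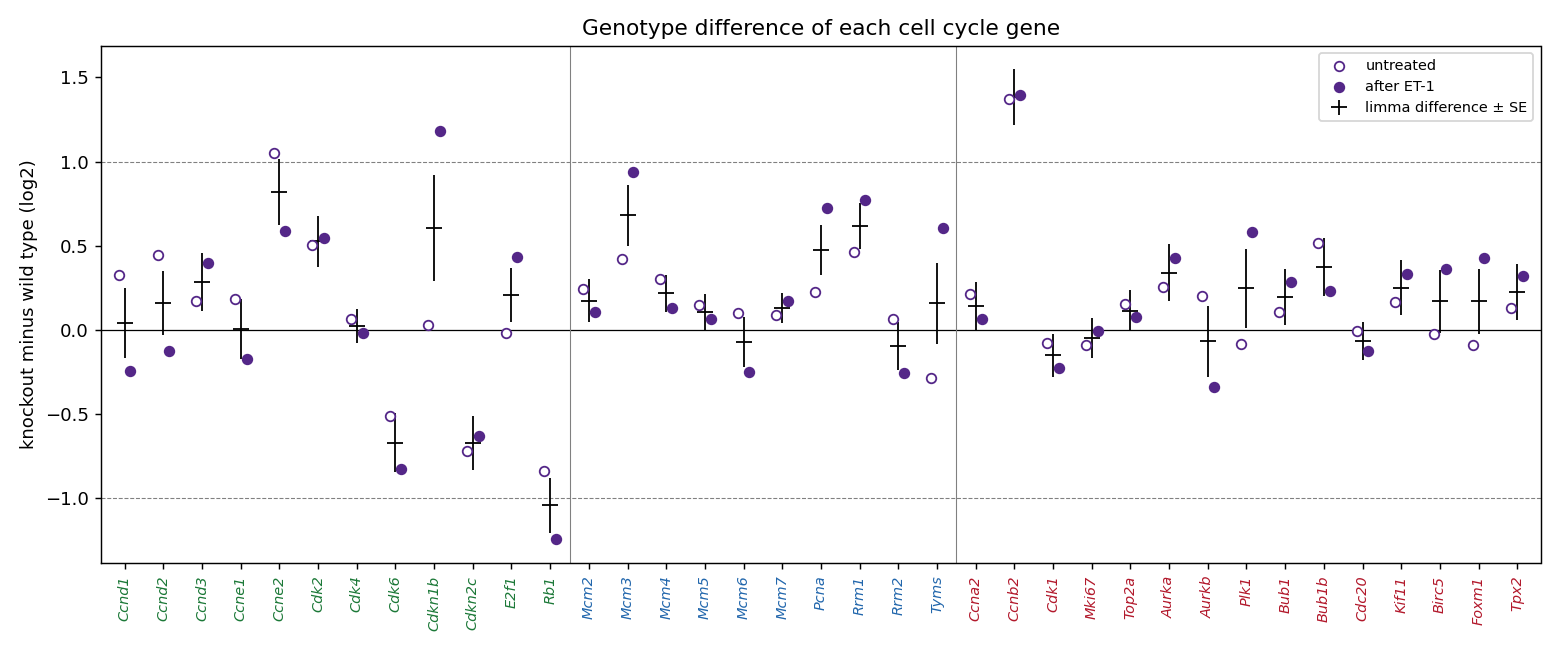
Knockout minus wild-type difference (y axis, log2) of the 37 genes (x axis, grouped as G1, S and mitotic), open points untreated, filled points after ET-1, bars the limma difference ± SE over 4 arrays, dashed lines 2-fold. Ccnb2 stands above 1 and Rb1 at or below -0.8 in both states, whereas the replication genes run from -0.29 to 0.94.

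The G1 genes ran in both directions, with 5 of 12 at an unadjusted limma p under 0.05 and 1 called, against 29.9% and 13.6% of all genes. The retinoblastoma gene Rb1, whose protein holds E2F factors back, read 11.16 and 11.82 in untreated and ET-1-treated wild type and 10.33 and 10.57 in the knockout. Both knockout values were below both wild-type values. The knockout stood at 1.79-fold less untreated and 2.37-fold less with ET-1, and the gene fell by 1.04 ± 0.16 (SE) over the 4 arrays (limma, adjusted p = 0.032). Without the untreated or the ET-1-treated knockout array the adjusted p was 0.301 and 0.202. A model without the treatment term gave 0.0586, and a fit that kept dim genes gave 0.0523. The mean with its dim second probe set was -0.57 (adjusted p = 0.0598). Its relatives among the pocket proteins did not pass: Rbl1 differed by -0.19 ± 0.16 (adjusted p = 0.506) and Rbl2 by 0.22 ± 0.15 (adjusted p = 0.418) by limma.

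By the limma difference over 4 arrays, cyclin E2 came next in G1, although after ET-1 Cdkn1b, Cdk6 and Cdkn2c were further apart. Cyclin E partners CDK2 at the entry to S phase. Ccne2 read 11.90 and 12.27 in untreated and ET-1-treated wild type and 12.95 and 12.85 in the knockout, so the genotypes did not overlap. The knockout was 2.07-fold higher untreated and 0.59 higher (log2) after ET-1, and limma gave 0.82 ± 0.20 with an adjusted p of 0.0788. Its paralogue Ccne1 read 12.61 and 12.82 in wild type and 12.80 and 12.65 in the knockout, and these ranges overlapped. Cdk2 itself was 0.51 and 0.55 higher in the knockout on the log2 scale in the 2 states (limma adjusted p = 0.111).

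Cdk6 and Cdkn2c lay lower in the knockout, although neither passed limma over all genes in the fit used throughout. CDK6 is a partner of D cyclins, and Cdkn2c encodes p18, an inhibitor of CDK4 and CDK6. Cdk6 read 12.75 and 13.12 in wild type and 12.24 and 12.30 in the knockout (-0.67 ± 0.18, adjusted p = 0.0938). Cdkn2c read 13.00 and 12.74 against 12.29 and 12.11 (-0.67 ± 0.16, adjusted p = 0.0769), and its single probe set passed in limma fits without a variance trend and over means of all probe sets (adjusted p = 0.0479 in both). For both genes each knockout value was below each wild-type value, and the second bright probe set of Cdk6 gave -0.64 and -0.65. The related kinase gene Cdk4 hardly moved, with 13.98 to 14.10 over the 4 arrays and a limma difference of 0.02 ± 0.10.

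The D cyclins, which link growth signals to CDK4 and CDK6, showed no called difference. Ccnd1 read 12.76 and 13.02 in untreated and ET-1-treated wild type and 13.09 and 12.78 in the knockout. The genotype difference was 0.33 untreated and -0.24 after ET-1, and limma gave 0.04 ± 0.21 (adjusted p = 0.929). Its other probe sets put the knockout 0.58 and 0.73 higher after ET-1, so the sign there depended on the probe set. Ccnd2 was 0.44 to 0.78 higher in the untreated knockout by all 6 of its probe sets above the filter, and between -0.23 and 1.15 after ET-1. Ccnd3 differed by 0.17 and 0.40. Ccnd2 was picked by its result in the fit without the ET-1-treated wild-type array, where its limma difference was 0.44. That fit leaves 1 wild-type array.

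Among the remaining G1 genes, Cdkn1b encodes the inhibitor p27 and E2f1 an activating E2F factor. Cdkn1b read 11.02 and 10.17 in untreated and ET-1-treated wild type and 11.05 and 11.35 in the knockout. Its genotype difference was 0.03 untreated and 1.18 after ET-1, and the ET-1-treated wild-type value was the lowest of the 4 (limma 0.61 ± 0.31, adjusted p = 0.297). E2f1 likewise differed by -0.02 untreated and 0.44 after ET-1. Neither gene differed between the untreated arrays by more than 0.03 on the log2 scale by these probe sets, but others disagreed. A second E2f1 probe set gave 0.31 untreated and 1.51 after ET-1. The other Cdkn1b probe set, below the level filter, gave the reverse pattern, 1.10 untreated and 0.06 after ET-1. The opposite patterns cancelled in the mean of both, which gave 0.57 untreated and 0.62 after ET-1. With that mean Cdkn1b passed limma at 0.59 ± 0.08 (adjusted p = 0.0199). The error of the fit comes from variation with treatment, so it was small because the 2 probe sets disagreed.

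Of the replication genes, 9 of 10 were above 0 in the untreated knockout and 8 of 10 after ET-1, against 6518 and 5713 of all 12290 genes. By limma 0 of 10 passed over all genes tested, against 13.6% of all genes. At an unadjusted p under 0.05 there were 3 of 10, against 29.9% of all genes. The median was 0.18 untreated and 0.15 after ET-1. The value after ET-1 depended on the probe sets: the median was 0.58 when all probe sets of each gene were averaged and 0.61 over the 24 probe sets above the filter. Of those 24, 5 were 2-fold or more higher (20.8%), against 6.38% of all. By the brightest probe set 4 of 10 genes were 1.5-fold or more higher after ET-1, against 11.9% of all genes. All 6 subunits of the MCM2-7 helicase, which unwinds DNA at the fork, were higher in the untreated knockout, by 0.09 (Mcm7) to 0.42 (Mcm3), with a median of 0.20 against 0.02 over all genes. After ET-1 the brightest probe sets ranged from -0.25 (Mcm6) to 0.94 (Mcm3). Dimmer ones above the filter reached 1.47 for Mcm5, 1.43 for Mcm3, 1.35 for Mcm7 and 0.97 for Mcm4. Untreated, those dimmer probe sets differed by 0.21 (Mcm5), 0.75 (Mcm3), 0.05 (Mcm7) and 0.47 (Mcm4). Every genotype difference after ET-1 uses the wild-type array with the wide 3′ to 5′ gap of Gapdh. The part of that gap in these values was not tested. Mcm3 read 13.39 and 12.88 in untreated and ET-1-treated wild type and 13.81 and 13.82 in the knockout (limma 0.68 ± 0.18, adjusted p = 0.0943). Both knockout values exceeded both wild-type values, and the other 3 bright Mcm3 probe sets put the knockout 0.36 to 0.75 higher untreated and 0.87 to 1.43 higher after ET-1. Mcm4 read 13.85 and 14.01 against 14.15 and 14.14, and Mcm2 13.34 and 13.46 against 13.58 and 13.57, again without overlap. The Mcm5, Mcm6 and Mcm7 differences were 0.15, 0.10 and 0.09 untreated. Of the Mcm genes whose promoters are printed, Mcm5 lay without overlap between genotypes and Mcm6 with overlap, by their brightest probe sets. The other Mcm5 probe set above the filter overlapped, at 12.52 and 11.02 in wild type against 12.73 and 12.49 in the knockout. A dimmer Mcm7 probe set overlapped too, with 13.13 in untreated wild type above 13.12 in the ET-1-treated knockout.

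Of the nucleotide supply and clamp genes, Rrm1 stood out by size. Rrm1 encodes the large subunit of ribonucleotide reductase, which makes deoxyribonucleotides. Rrm1 read 13.71 and 13.21 in wild type and 14.17 and 13.98 in the knockout (limma 0.62 ± 0.14, adjusted p = 0.0652). The small subunit gene Rrm2, whose level limits the enzyme in S phase, differed by 0.07 untreated and -0.26 after ET-1. Pcna, the sliding clamp of DNA polymerases, read 14.48 and 14.02 against 14.70 and 14.75 (limma 0.47 ± 0.15, adjusted p = 0.132). Tyms, which encodes thymidylate synthase, was represented by a probe set between 8.62 and 9.23, around the level filter of 8.90, and differed by -0.29 untreated and 0.60 after ET-1. A probe set shared by Tyms and its pseudogene was left out. Without the ET-1-treated wild-type array, 1 wild-type array remained. In that fit the limma difference was 0.43 for Mcm3, 0.30 for Mcm4, 0.24 for Pcna and 0.37 for Rrm1, all higher in the knockout.

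Among the mitotic genes Ccnb2 was the 1 of 15 with an unadjusted limma p under 0.05 for genotype, against 29.9% of all genes. Cyclin B2 activates CDK1 at entry into mitosis. Ccnb2 read 11.36 and 11.32 in untreated and ET-1-treated wild type and 12.73 and 12.71 in the knockout. The genotypes were far apart while the 2 treatments within each genotype lay within 0.04 on the log2 scale. The knockout was 2.59-fold higher untreated and 2.63-fold higher after ET-1, and the gene rose by 1.38 ± 0.16 by limma (adjusted p = 0.0171). It passed in every setting tried except those without 1 knockout array (adjusted p = 0.0796 and 0.0823). Only 1 probe set measures this gene here.

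The other 14 mitotic genes differed by -0.09 (Mki67) to 0.52 (Bub1b) untreated and by -0.34 (Aurkb) to 0.58 (Plk1) after ET-1. The proliferation marker Mki67 read 13.61 and 13.71 in wild type and 13.52 and 13.71 in the knockout, and the topoisomerase Top2a 13.48 and 13.66 against 13.64 and 13.74. The ranges of the genotypes overlapped for both. CDK1, the kinase that cyclin B2 binds, showed no such rise: Cdk1 read 13.59 and 13.58 against 13.52 and 13.36 (limma -0.15 ± 0.13, adjusted p = 0.519). Ccna2, which acts in S phase and early mitosis, differed by 0.22 and 0.06, and the APC activator gene Cdc20 by 0.00 and -0.12.

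Of the spindle checkpoint and spindle genes, none passed limma over the 4 arrays. Bub1b, which encodes the checkpoint protein BubR1, read 12.34 and 12.58 in wild type and 12.86 and 12.82 in the knockout (limma 0.38 ± 0.17, adjusted p = 0.249). Bub1b was picked by its result in the fit without the ET-1-treated wild-type array, where its limma difference was 0.50. That fit leaves 1 wild-type array. The checkpoint kinase Bub1 differed by 0.11 and 0.29, the spindle motor Kif11 by 0.17 and 0.33, and the spindle assembly factor Tpx2 by 0.13 and 0.32. The other Bub1 probe set, between 8.33 and 8.97 around the filter, put the knockout 0.61 higher untreated and 0.62 higher after ET-1. Other probe sets above the filter put Kif11 at -0.24 and 0.22 untreated and at 0.86 and -0.75 after ET-1. The other 3 of Tpx2 lay between -0.21 and -0.07 untreated and between 0.01 and 0.04 after ET-1. Of the mitotic kinases, Aurka was 0.26 and 0.42 higher in the knockout, Aurkb 0.20 higher and 0.34 lower, and Plk1 0.09 lower and 0.58 higher. For Plk1, survivin (Birc5) and the transcription factor gene Foxm1, the untreated arrays lay within 0.09 of each other on the log2 scale and the ET-1 arrays 0.36 to 0.58 apart.

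ET-1 went with no 2-fold difference of any of the 37 genes in either genotype, against 1.95% of all genes in wild type (0.781% higher and 1.17% lower) and 0.513% in the knockout (0.236% and 0.277%). By limma averaged over genotypes 0 of 37 genes passed and 0 of 37 had an unadjusted p under 0.05; over all genes 0 passed (0.0%) and 5.23% had an unadjusted p under 0.05. In the knockout the ET-1 differences ran from -0.34 (Aurka) to 0.49 (Tyms), with a median of -0.02, and 0 of 37 reached 1.5-fold, against 1.39% of all genes higher and 0.936% lower. In wild type they ran from -0.87 (Plk1) to 0.65 (Rb1), with a median of -0.04. At 1.5-fold or more, 3 wild-type genes were lower (8.11%), against 4.22% of all genes, and 1 was higher, against 6.51%. The 3 were Plk1 (1.83-fold), Cdkn1b (1.80-fold) and Birc5 (1.58-fold), and the 1 was Rb1 (1.57-fold).

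**Figure D3:**
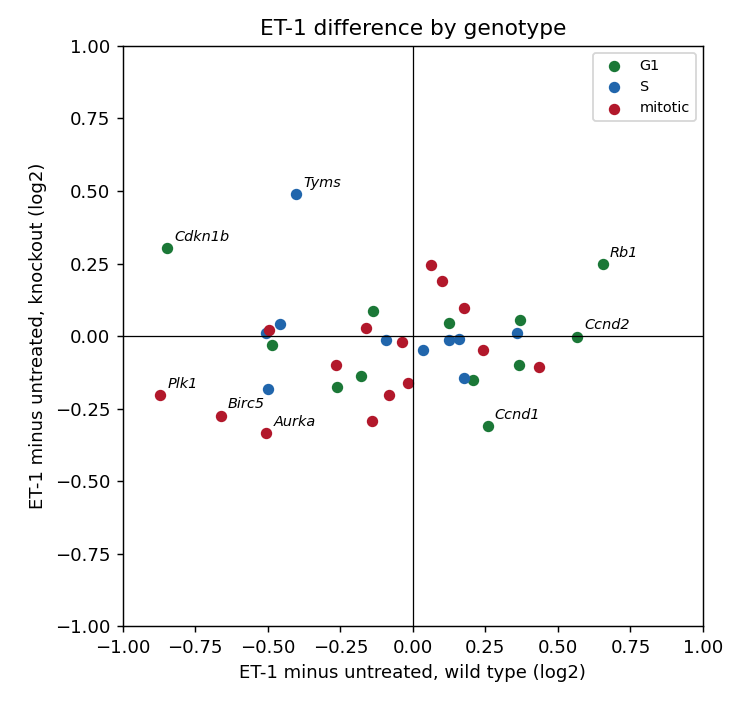
ET-1 minus untreated difference (log2) of each of the 37 genes in wild type (x axis) and in the knockout (y axis), coloured by stage. Points spread from -0.87 to 0.65 along the wild-type axis and from -0.34 to 0.49 along the knockout axis.

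In each genotype 10 of the 15 mitotic genes were below 0 after ET-1, against 5297 of 12290 genes in wild type and 6791 in the knockout, with medians of -0.08 in wild type and -0.10 in the knockout. Plk1, a kinase of mitotic entry and exit, read 12.43 untreated and 11.56 after ET-1 in wild type and 12.35 and 12.14 in the knockout. Birc5 read 12.78 and 12.11 in wild type and 12.75 and 12.48 in the knockout, and Aurka 12.46 and 11.95 against 12.71 and 12.38. All 3 were lower after ET-1 in each genotype, with a limma treatment difference of -0.54 ± 0.23 for Plk1, -0.47 ± 0.19 for Birc5 and -0.42 ± 0.17 for Aurka. None passed limma over all genes (adjusted p = 0.780 for each). Mki67 and Top2a went the other way in both genotypes by their brightest probe sets, by 0.10 to 0.19. The other Top2a probe set above the filter gave -0.18 in wild type and 0.05 in the knockout.

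In wild type the ET-1 difference depended on which probe set of a gene was read. For the helicase gene Mcm5 the brightest probe set read 13.78 untreated and 13.81 after ET-1, whereas the second read 12.52 and 11.02, a difference of -1.50. In the knockout the same probe sets gave -0.05 and -0.24. Mcm7 behaved alike, at -0.09 by the brightest probe set and -1.36 by a dimmer one in wild type, against -0.01 and -0.06 in the knockout. The 4 bright Mcm3 probe sets gave -0.50 to -1.08 in wild type and -0.40 to 0.01 in the knockout. Ccnd1 showed the same split, at 0.26, -0.69 and -0.76 in wild type and -0.31 to -0.27 in the knockout, as did Kif11, at -0.26, -0.69 and 0.74 in wild type.

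Over the 78 probe sets of these genes above the filter, 6 were 2-fold or more lower after ET-1 in wild type (7.69%), against 1.9% of all 20939 probe sets above it, and 0 were in the knockout, against 0.258%. None of the 78 was 2-fold higher after ET-1 in either genotype, against 0.907% and 0.478% of all. Of the 6, 5 belonged to replication genes (2 of Mcm3 and 1 each of Mcm5, Mcm7 and Rrm1) and 1 to E2f1. The 24 replication probe sets had medians of -0.43 (wild type) and -0.06 (knockout), whereas the 10 brightest ones had a median of -0.03 in wild type. Of 25 genes with several bright probe sets, 5 had probe sets 1 log2 unit or more apart in the wild-type ET-1 difference (20.0%), against 11.0% of 5240 genes. In the knockout ET-1 difference 0 of 25 did, against 2.04%, and in the untreated genotype difference 0 of 25, against 8.07%. Every wild-type ET-1 value uses the array with the wide 3′ to 5′ gap, and the part of that gap in these splits was not tested. The position of each probe set along its transcript was not used here.

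**Figure D4:**
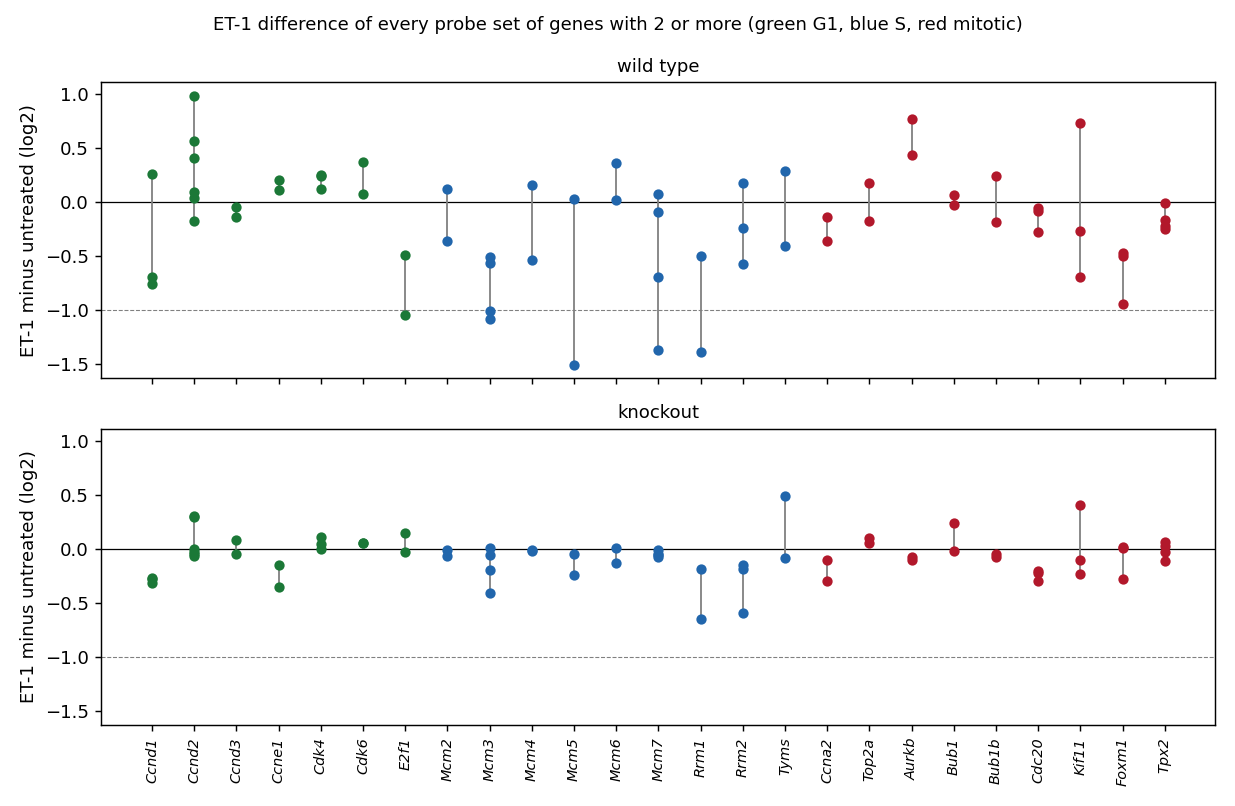
ET-1 minus untreated difference (y axis, log2) of each probe set above the level filter for the 25 genes with several such probe sets (x axis), wild type above and knockout below, with a grey line from the lowest to the highest probe set of a gene. In wild type the probe sets of Mcm5 span 1.54, those of Mcm7 1.44 and those of Kif11 1.43; in the knockout no gene spans more than 0.64.

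Among the 78 probe sets, 2 were 2-fold or more higher and 0 lower in the untreated knockout, against 4.75% and 4.63% of all. After ET-1 9 were higher and 1 lower, against 6.38% and 6.31%. With the mean of the bright probe sets in place of the brightest, 5 genes were 2-fold or more apart after ET-1. Ccnb2 (1.39), Cdkn1b (1.18), Mcm3 (1.13) and Rrm1 (1.08) were higher in the knockout and Rb1 (-1.24) lower. With the mean of all probe sets, dim ones included, Ccnb2 alone remained at 2-fold. By the brightest probe set it was 3 of 37 genes, against 12.1% of all genes. The share of all genes under the means is not given here, so these counts are not set against it. In untreated cells Ccne2 and Ccnb2 were the 2 genes at 2-fold under each of these summaries. Each of them has 1 probe set, so its own value could not change with the summary.

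A wider list held 133 other cell cycle genes. Of the 130 measured, 5 rose and 4 fell in the knockout by limma (6.92%), against 13.6% of all genes, and the median difference was 0.10 untreated and 0.05 after ET-1. Among 26 other G1 genes, 2 rose and 3 fell. The growth factor response gene Myc fell by 1.60 ± 0.25 (adjusted p = 0.032), the kinase inhibitor Cdkn1c fell by 2.60 ± 0.19 and the repressive E2F gene E2f7 fell by 1.12 ± 0.17. The Myc relative Mycn rose by 3.90 ± 0.29, although the mean of its probe sets was 1.39 untreated and 1.63 after ET-1, and the E2F partner Tfdp2 rose by 1.17 ± 0.16.

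Further kinase inhibitors did not pass limma. Cdkn1a (p21) differed by 0.13 ± 0.16 and Cdkn2b (p15) by -0.89 ± 0.18 (adjusted p = 0.0565). Cdkn2a read 11.26 untreated and 8.76 after ET-1 in wild type against 10.89 and 11.34 in the knockout, so wild type after ET-1 alone was low, at a value below the level filter.

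Among 46 other replication genes 2 rose and 0 fell: the clamp loader subunit Rfc4 (0.89 ± 0.16, limma adjusted p = 0.0409) and the MCM relative Mcm8 (0.85 ± 0.13, limma adjusted p = 0.0323). At an unadjusted limma p under 0.05 there were 7 of 46, against 29.9% of all genes. Among 58 other mitotic genes Mybl2, which encodes B-MYB, rose by 1.01 ± 0.15 and Pttg1, which encodes securin, fell by 0.98 ± 0.10 (limma adjusted p = 0.0288 and 0.0131). The mean of the Mybl2 probe sets was 0.30 untreated and 0.77 after ET-1. The 3 widest ET-1 differences in wild type on each list were Cdkn2a (-2.50), Mycn (-1.09) and E2f5 (-0.81) in G1. They were Uhrf1 (-0.90), Pold2 (-0.84) and Pola1 (-0.72) in replication and Kifc1 (-1.46), Fzr1 (-0.86) and Lmnb1 (-0.80) in mitosis. As the mean of their probe sets, Mycn, E2f5 and Pola1 were closer to 0, at -0.43, -0.17 and -0.37. In the knockout these 9 genes ran from -0.22 to 0.45.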

How the data were processed

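The authors deposited 1 table of log2 values for 45101 probe sets on 4 arrays, made with RMA (per the submitters' processing notes); its version is not given in the sources used here. The values were used as deposited. Probe sets were named through the platform annotation (34958 with 1 gene, 932 with several), and symbols were checked through Entrez identifiers against the GRCm38.p6 RefSeq table (34754 matched). A gene was represented by its brightest probe set paired with it alone. A gene was kept where its highest value exceeded log2 8.90, the overall median.

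Differences between 2 arrays were computed without a test and counted at 2-fold. Genotype and treatment entered 1 additive fit by limma 3.58.1 (lmFit, eBayes with trend, R 4.3.3) over 12290 genes, with Benjamini-Hochberg adjustment and a threshold of 0.05. The script was tested on simulated data. The fit has 1 residual and 3.00 prior degrees of freedom. Precision is limited by the number of arrays. Alternatives changed the probe set summary, centring, filter, threshold, trend and model and left out each array in turn. The genes and lists were chosen with earlier results of these data known. All 37 measured genes are described, with other genes named by rank among those called or by size of the ET-1 difference in wild type. FAK itself was not analysed here, so the genotype labels were not checked against it. Tables and plots were made in Python 3.11.15 with pandas 2.3.3, numpy 2.4.6 and matplotlib 3.10.9.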

Additional observations from a re-analysis of the deposited data

Results flagged for a closer look

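In 2 genes the ET-1 difference had opposite signs in the genotypes and was at least 1.2-fold in each. Cdkn1b, which encodes p27, was at -0.85 (log2) in wild type and 0.30 in the knockout by its brightest probe set. Its other probe set, below the level filter, gave 0.03 and -1.01, and the mean of both gave -0.41 and -0.35, so the signs were then alike. Tyms was at -0.40 in wild type and 0.49 in the knockout, by a probe set around the level filter. Each rests on 1 array per group and the difference was not tested. A second Tyms probe set above the filter gave 0.29 and -0.08, the reverse order.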

How the results depend on the processing

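Leaving out 1 array in turn, with genotype alone in the model, gave 0 to 11 of the 37 genes called for genotype, against 2. Subtracting array medians gave 5 and keeping dim genes gave 1. Over all genes, limma called 1179 higher and 1132 lower of 12290 with array medians subtracted. With dim genes kept it called 718 higher and 779 lower of 18194. The fit used throughout called 811 higher and 866 lower of 12290. A fit with 1 array left out keeps 1 array in a genotype. Its count moved over all genes too, so the range is not read as a feature of these genes. At a 1.5-fold threshold 4 genes differed between untreated genotypes, 10 after ET-1 and 4 after ET-1 in wild type. For the genotype difference after ET-1, the mean of all probe sets gave 1 gene at 2-fold. The mean of the bright ones, an alternative chosen after seeing the data, gave 5. By the brightest probe set it was 3 of 37, against 12.1% of all genes, and shares under the means are not given. The remaining counts stayed within 1.5 times. Ccnb2 and Rb1 kept their direction in every limma fit. Untested medians did turn with the mean of all probe sets: after ET-1 the G1 median of the genotype difference went from -0.07 to 0.32, and the G1 median of the wild-type ET-1 difference from 0.17 to -0.03. The replication median of that ET-1 difference went from -0.03 to -0.46, and to 0.01 with array medians subtracted. The knockout ET-1 difference of Cdkn1b went from 0.30 to -0.35. The causes were not tested. No paired analysis was possible because each group is 1 array and the labels give no replicate numbers.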
